A study of Mus musculus with 6 samples.

Results

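The 9 genes described here make cyclic GMP or bind natriuretic peptides, and were followed in mouse auditory cortex with and without overexpression of Wnt3, a secreted Wnt ligand. These 9 genes, of 50559 listed, were taken by symbol. They are the soluble guanylate cyclase subunits Gucy1a1, Gucy1a2 and Gucy1b1, the natriuretic peptide receptors Npr1, Npr2 and Npr3, and the membrane cyclases Gucy2c, Gucy2e and Gucy2g. The family was chosen from this same comparison, because Gucy2g had been among the genes with the smallest p in it. The fold changes of the 9 genes are therefore given as a description, with no p-value printed for any of the 9, and carry no independent support. Counts of calls among the 9 restate that choice. RNA sequencing was made from 3 libraries labelled WNT3 Overexpressing and 3 labelled WNT3 control, all of C57 mice. The labels give neither the route of overexpression, nor what the controls received, nor age, nor whether libraries are separate animals, so p-values cover only the spread between these libraries. The tissue is labelled auditory cortex, but striatum is the tissue named for RNA extraction.

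Cyclic GMP is a second messenger made from GTP by guanylate cyclases. The soluble enzyme is a heterodimer of an alpha and a beta chain that nitric oxide activates through a haem group, and in the brain it links nitric oxide made at synapses and in vessels to cyclic GMP. The membrane enzymes are single chains with an extracellular domain and an intracellular cyclase domain. Npr1 and Npr2 are such enzymes and bind the natriuretic peptides, while Npr3 binds the same peptides but has no cyclase domain and removes them. Cyclic GMP then acts on protein kinases, ion channels and phosphodiesterases.

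All 9 genes are protein-coding in the GENCODE M21 annotation of mm10. Gucy1a1 (chr3:82092427-82145789) and Gucy1b1 (chr3:82032006-82074689) lie in tandem on the minus strand, 17737 bases apart. Gucy1a2 (chr9:3532778-3894736) is on the plus strand. Npr1 (chr3:90450591-90465866, minus strand), Npr2 (chr4:43631935-43651244, plus strand) and Npr3 (chr15:11839896-11907287, minus strand) are on separate loci. Gucy2c (chr6:136697284-136781765), Gucy2e (chr11:69218117-69237036) and Gucy2g (chr19:55198099-55241236) are all on the minus strand. Mir7010 lies inside Gucy1a1 on its strand and had at most 4 counts in a library. Antisense or divergent transcripts overlap Npr1, Npr2 and Npr3. Of these, Gm5144 at Npr3 was in the tables, at 0 CPM in the 3 overexpression libraries and at most 0.178 CPM in the controls. Those at Npr1 and Npr2 were not listed there under their annotated symbols. The strand setting of the counting is not given in the sources used here, so reads of such partners may be counted with the member.

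The promoter sequences shown are those of Gucy2g, the member whose groups stood apart, at both of its annotated start sites, and of the tandem pair Gucy1a1 and Gucy1b1, whose products form 1 enzyme. Each run is the 250 bases before a RefSeq start site of GRCm38.p6, on the strand of the gene, from 5′ to 3′. Capitals mark every match on either strand to 5 motifs. The core bound by the TCF/LEF factors of Wnt signalling was searched as CTTTGA and, with another last base, as CTTTGT. The AP-1 site was searched as TGANTCA, and the half-site of the cyclic AMP response element as TGACG. The GC box was searched as GGGCGG, and the TATA box as TATAAA, and matches that overlap share their capitals.
Gucy2g, upstream start, chr19:55241253-55241502: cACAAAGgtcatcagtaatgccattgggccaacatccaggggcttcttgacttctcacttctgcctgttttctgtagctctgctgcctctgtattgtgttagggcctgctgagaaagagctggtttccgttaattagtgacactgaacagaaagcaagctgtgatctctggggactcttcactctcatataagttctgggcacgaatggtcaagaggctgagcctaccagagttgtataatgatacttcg
Gucy2g, downstream start, chr19:55217573-55217822: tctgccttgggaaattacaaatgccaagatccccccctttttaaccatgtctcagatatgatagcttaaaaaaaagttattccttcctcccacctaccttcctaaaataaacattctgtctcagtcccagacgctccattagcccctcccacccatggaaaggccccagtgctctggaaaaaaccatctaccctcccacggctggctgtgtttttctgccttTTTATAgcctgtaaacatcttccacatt
Gucy1a1, upstream start, chr3:82145651-82145900: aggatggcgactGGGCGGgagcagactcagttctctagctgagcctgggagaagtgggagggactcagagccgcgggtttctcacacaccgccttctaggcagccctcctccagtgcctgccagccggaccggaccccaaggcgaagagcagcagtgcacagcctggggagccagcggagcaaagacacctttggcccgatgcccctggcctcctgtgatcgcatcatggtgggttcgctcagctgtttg
Gucy1b1, chr3:82074712-82074961: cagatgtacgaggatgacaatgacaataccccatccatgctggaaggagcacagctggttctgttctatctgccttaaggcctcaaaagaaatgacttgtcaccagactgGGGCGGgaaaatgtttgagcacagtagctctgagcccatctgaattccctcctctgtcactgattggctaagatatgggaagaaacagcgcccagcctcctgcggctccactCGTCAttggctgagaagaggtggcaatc

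The Gucy2g start sites lie 23680 bases apart. The upstream window held 1 TCF/LEF core, beginning 249 bases before the start, and the downstream window 1 TATA box, beginning 28 bases before the start. GC content was 47.2% and 45.2% in these windows, against 64.0% for Gucy1a1, 51.2% for Gucy1b1 and a median of 52.4% over all 32851 promoter windows of this length. Gucy1a1 held 1 GC box and Gucy1b1 held 1 GC box and 1 cyclic AMP half-site, and no AP-1 site was found in any of the 4 windows. Over all windows the TCF/LEF core was present in 27.6%, the TATA box in 12.4%, the GC box in 32.7%, the cyclic AMP half-site in 17.8% and the AP-1 site in 6.75%. Of all 10 promoter windows of 8 members in the table, Npr2 was the other with a TCF/LEF core, 132 bases before its start. These are matches of letters and say nothing of binding.

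Total counts were 54642400 to 71803617 in the overexpression libraries and 42614588 to 55859274 in the controls. Wnt3 stood at 98.8, 7.45 and 8.71 CPM (counts scaled to 1000000 over TMM-adjusted library totals) in overexpression libraries 1 to 3, against 2.70, 1.91 and 1.74 CPM in controls 1 to 3, so its level was far from equal among the overexpression libraries. The log2 fold change of Wnt3 was 4.18 ± 1.02 (SE), and 1.94 without overexpression library 1. Control 2 stood apart from the other libraries. It had the lowest value of the 6 libraries in 34.1% of tested genes, against 9.57% to 15.0% for each other library. In the 10% of genes with the longest implied transcript its median log2 difference from the other two controls was -0.75, and in the 10% with the shortest it was 1.02. Markers of cortical excitatory neurons were at a summed 1135 to 1223 CPM in overexpression and 1095 to 1212 CPM in control, and none of the 6 was at 0 in all libraries. The 8 striatal projection neuron markers summed to 188 to 258 CPM in overexpression and 177 to 356 CPM in control, and none was at 0 in all libraries. The part of these differences in the results below was not tested. In tissue libraries such as these, fewer cells of a type and less RNA per cell cannot be told apart.

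The soluble cyclase dominated the family. Levels are compared between genes as the authors' TPM, which corrects for transcript length. In the control libraries Gucy1b1, the obligate beta chain that carries the haem, had the highest mean of the 9 genes, 107 ± 38.3 TPM (SD, n = 3), followed by Gucy1a1 at 41.9 ± 17.8 TPM (SD, n = 3). Npr2, the receptor of C-type natriuretic peptide, followed at 23.0 ± 2.43 TPM (SD, n = 3). Through control 2 its range overlapped that of Gucy1a1, although Npr2 was the lower in each control. Gucy1a2 stood at 19.8 ± 13.1 TPM (SD, n = 3), and the ranges of Npr2 and Gucy1a2 overlapped. Without control 2 their order turned, with means of 27.4 TPM for Gucy1a2 and 24.2 TPM for Npr2. Gucy2g came next at 9.94 ± 1.99 TPM (SD, n = 3), overlapping Gucy1a2 through control 2 and with a range above that of Npr3 at 4.90 ± 2.64 TPM (SD, n = 3). Gucy2e and Npr1 overlapped at 1.08 ± 0.50 and 1.03 ± 0.47 TPM (SD, n = 3), and Gucy2c was last at 0.06 ± 0.05 TPM (SD, n = 3). Gucy2g in control cortex thus stood between the 2 main natriuretic peptide receptors in this tissue, above the other cyclases named Gucy2.

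**Figure D1:**
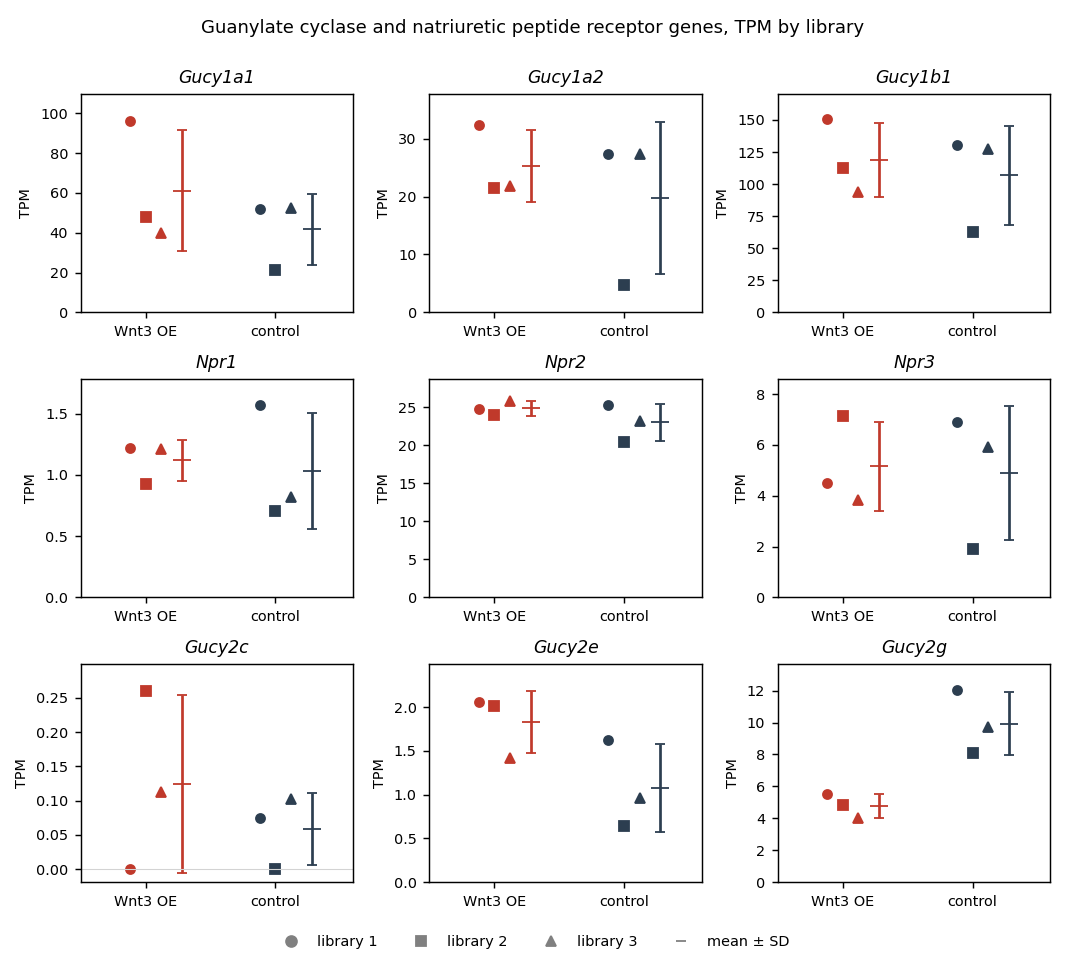
TPM of each of the 9 genes by library, with Wnt3 overexpression (red) left of control (dark blue); symbols give the library number and bars the mean ± SD of 3 libraries, each panel with its own scale. Gucy2g is the gene whose groups do not overlap, at 4.0 to 5.52 TPM in overexpression and 8.08 to 12.04 TPM in control, and control 2 (square) is the lowest library for the other 7 tested genes.

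Gucy2g was the member whose groups stood apart. The gene encodes a membrane guanylate cyclase that is known in mice from the Grueneberg ganglion of the nose, where it takes part in the response to cold. Its level was 5.53, 5.16 and 4.92 CPM in overexpression libraries 1 to 3, against 13.6, 12.9 and 10.96 CPM in controls 1 to 3. All 3 overexpression libraries lay below every control, and within each group the values were close together. The means were 5.20 ± 0.31 CPM in overexpression and 12.5 ± 1.37 CPM in control (SD, n = 3). This amounts to a log2 fold change of -1.26 ± 0.21 (SE), or 0.416 times the control level. With each library left out in turn the log2 fold change ran from -1.35 to -1.19. Overexpression library 1, which had by far the most Wnt3, was at 5.53 CPM of Gucy2g, against 5.16 and 4.92 CPM in overexpression libraries 2 and 3. Whether the level of Wnt3 bears on that of Gucy2g was not tested. Control 2, which stood apart for long transcripts, was close to the other controls for this gene, with a log2 difference of 0.08.

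On the length-corrected scale, Gucy2g stood at 5.52, 4.85 and 4.0 TPM for overexpression libraries 1 to 3, against 12.04, 8.08 and 9.69 TPM for controls 1 to 3. The groups did not overlap on this scale either. The length that the authors' tables imply for Gucy2g, as counts per TPM relative to the same ratio for Gucy1b1, was 0.792, 0.809 and 0.907 in the overexpression libraries and 0.838, 0.814 and 0.832 in the controls. It was thus highest in overexpression library 3 and otherwise alike, and the counts held no separate values for the 2 start sites.

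Low counts kept 1 of the 9 genes, Gucy2c, out of the tests, and in 7 of the other 8 the groups overlapped. Groups that did not overlap were found in 1 of 8 members, Gucy2g, while over all 22360 tested genes the share was 11.9%. The edgeR quasi-likelihood test called 0 of the 8 at an adjusted p of 0.05, and 0% of all tested genes. Its unadjusted p was under 0.05 for 1 member, Gucy2g, and for 4.65% of all tested genes. DESeq2 called 1 member, Gucy2g, and 0.248% of the 25782 genes it gave an adjusted p. Since this comparison put forward the family, these counts restate how the members were chosen and are no test of them. Of the 8 members, 4 had a log2 fold change above 0 and 4 below 0, and in 5 of them it was smaller than its standard error. In 6 of them the sign turned when a library was left out.

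**Figure D2:**
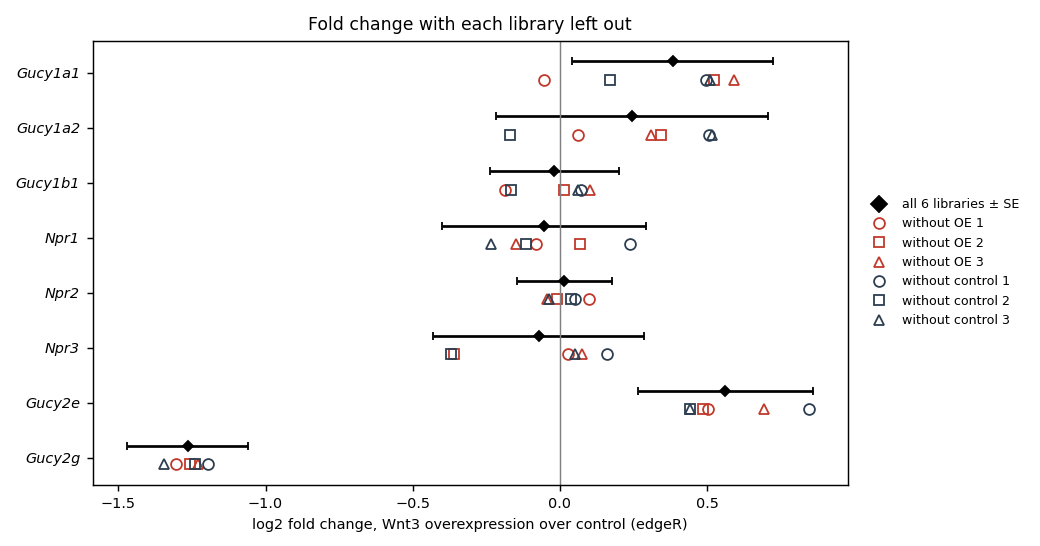
log2 fold change of Wnt3 overexpression over control for the 8 tested members (horizontal axis), with all libraries (diamond ± SE) and with each library left out (open symbols, red for a left-out overexpression library and dark blue for a left-out control). Gucy2g stays between -1.35 and -1.19, Gucy2e stays above 0, and the other 6 fall on both sides of 0.

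Among the subunits of the soluble cyclase, the beta chain showed the smallest difference. Gucy1b1 was at 190, 148 and 127 CPM in overexpression libraries 1 to 3, against 175, 123 and 173 CPM in controls 1 to 3, with overlapping groups and a log2 fold change of -0.02 ± 0.22 (SE). Gucy1a1, the more abundant alpha chain here, was at 177, 91.7 and 78.4 CPM in overexpression libraries 1 to 3, against 102, 60.7 and 103 CPM in controls 1 to 3. Overexpression library 1 was the highest and control 2 the lowest, and the other 4 libraries lay close together. The log2 fold change of Gucy1a1 was 0.38 ± 0.34 (SE) with all libraries, -0.06 without overexpression library 1, 0.17 without control 2 and 0.59 without overexpression library 3. Gucy1a2, whose alpha chain is known to bind a scaffold protein of the postsynaptic density, was at 173, 119 and 125 CPM in overexpression libraries 1 to 3, against 156, 38.8 and 157 CPM in controls 1 to 3. Control 2 was far below the other 5 libraries. The log2 fold change of Gucy1a2 was 0.24 ± 0.46 (SE) with all libraries, -0.17 without control 2, 0.06 without overexpression library 1, 0.51 without control 1 and 0.52 without control 3.

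The makeup of the soluble enzyme was also compared within each library, as ratios of TPM chosen after the values were seen. For Gucy1a1 over Gucy1b1 the overexpression libraries 1 to 3 had ratios of 0.638, 0.424 and 0.423, against 0.399, 0.340 and 0.410 for controls 1 to 3. The groups did not overlap, but overexpression libraries 2 and 3 lay little above controls 1 and 3. For Gucy1a2 over Gucy1b1 the overexpression libraries 1 to 3 had ratios of 0.215, 0.190 and 0.233, against 0.210, 0.0749 and 0.214 for controls 1 to 3, so that control 2 alone was low. Gucy1a1 made up 64.5% to 74.8% of alpha chain transcripts in overexpression and 65.5% to 82.0% in control, the highest share being that of control 2. In each of the 6 libraries the alpha chains together were below the beta chain, at 0.614 to 0.854 of it in overexpression and 0.415 to 0.625 of it in control.

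**Figure D3:**
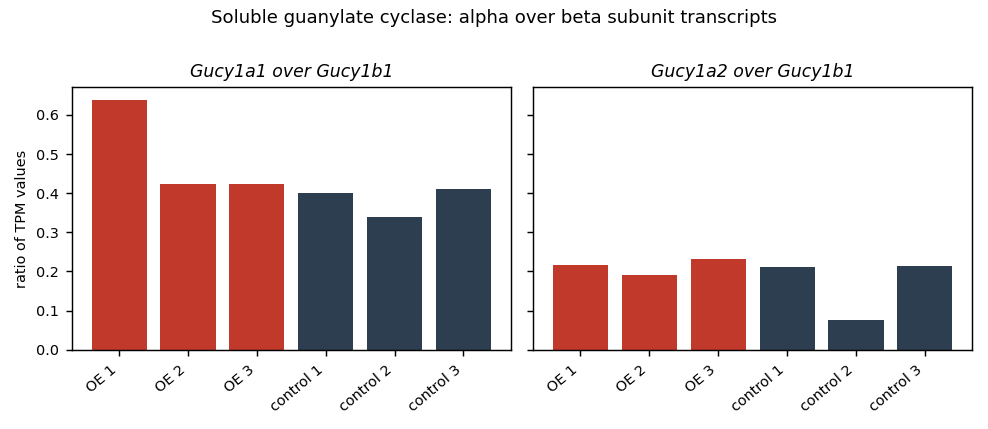
Ratio of TPM of each alpha subunit gene of soluble guanylate cyclase to the beta subunit gene Gucy1b1 (vertical axis), 1 bar per library, overexpression (red) left of control (dark blue). Overexpression library 1 has the highest Gucy1a1 ratio, 0.638, and control 2 the lowest Gucy1a2 ratio, 0.0749.

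The natriuretic peptide receptors showed no separation. Npr1, the receptor of the atrial and B-type peptides, was at 1.98, 1.56 and 2.11 CPM in overexpression libraries 1 to 3, against 2.67, 1.78 and 1.42 CPM in controls 1 to 3, a log2 fold change of -0.05 ± 0.35 (SE). Npr2 was at 39.3, 45.8 and 47.5 CPM in overexpression libraries 1 to 3, against 45.8, 45.2 and 40.3 CPM in controls 1 to 3, a log2 fold change of 0.01 ± 0.16 (SE), the smallest standard error of the 8 members. Npr3, the clearance receptor, was at 12.02, 19.0 and 10.9 CPM in overexpression libraries 1 to 3, against 19.0, 7.98 and 17.0 CPM in controls 1 to 3. The values of Npr3 were spread as widely within each group as between them, and its log2 fold change was -0.07 ± 0.36 (SE), or -0.37 without control 2. Npr2 held 74.8% to 83.6% of the summed TPM of the 3 receptors in overexpression and 75.0% to 88.7% in control. The share of Npr3 was 12.4% to 22.3% in overexpression and 8.25% to 20.4% in control, and that of Npr1 was 2.89% to 4.01% in overexpression and 2.73% to 4.65% in control.

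The remaining membrane cyclases were low. Gucy2e, the cyclase of photoreceptor outer segments, was at 6.26, 6.33 and 4.64 CPM in overexpression libraries 1 to 3, against 5.28, 3.21 and 3.18 CPM in controls 1 to 3. Control 1 lay above overexpression library 3, so the groups overlapped, and the log2 fold change of 0.56 ± 0.30 (SE) was between 0.44 and 0.85 with single libraries left out, the highest being without control 1. Gucy2c, the receptor of guanylin peptides in the intestine, had too few counts to be tested. It had 0, 26 and 14 counts in overexpression libraries 1 to 3, against 6, 0 and 9 counts in controls 1 to 3. A count of 0 allows up to 0.0535 CPM in overexpression library 1 and 0.055 CPM in control 2 (a limit of 3 counts, covering counting error only), and Gucy2c was at most 0.418 CPM in any library. As a share of the summed TPM of the single-chain cyclases Gucy2c, Gucy2e, Gucy2g, Npr1 and Npr2, the Gucy2g transcript took 16.5%, 15.2% and 12.3% of it for overexpression libraries 1 to 3, against 29.6%, 27.0% and 27.9% of it for controls 1 to 3. Since it contains Gucy2g itself, the share repeats the separation of the groups described above.

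Control 2 touched the members to different degrees. Its log2 difference from the mean of the other two controls was -2.01 for Gucy1a2, -1.17 for Npr3, -0.76 for Gucy1a1, -0.51 for Gucy1b1 and -0.35 for Gucy2e, against -0.13 for Npr1, 0.07 for Npr2 and 0.08 for Gucy2g. Gucy1a2 has the longest implied transcript of the 8, at percentile 97.7 of tested genes, and Gucy2g the shortest, at percentile 45.2. Length and control 2 moved together only in part, since Gucy2e is at percentile 91.3 and Npr2 at percentile 69.9. What length contributes to each value was not tested.

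The genes around the members were examined because reads of a neighbour can be counted with a gene. Of 16 tested neighbours, the edgeR test called 0 (adjusted p of 0.05), and 0% of all tested genes. Its unadjusted p was under 0.05 for 0 of the 16, and for 4.65% of all tested genes. The log2 fold changes of the neighbours ran from -1.17 to 0.47. In 2 of the 16 the groups did not overlap, close to the 11.9% of all tested genes. These are Tectb and Acsl5, on either side of Gucy2g. Tectb, which encodes a protein of the tectorial membrane in the inner ear, ends 1785 bases from the end of Gucy2g on the opposite strand, so that the genes converge. It had 40, 39 and 19 counts in overexpression libraries 1 to 3, against 31, 99 and 53 counts in controls 1 to 3, where Gucy2g had 310, 321 and 351 counts in overexpression and 580, 704 and 554 counts in control. In CPM, Tectb was at 0.71, 0.63 and 0.27 in overexpression, against 0.73, 1.82 and 1.05 in control, a log2 fold change of -1.17 ± 0.53 (SE), or -0.74 without control 2. Its groups were apart by the small gap between overexpression library 1 and control 1. Acsl5, an acyl-CoA synthetase gene 10701 bases beyond the 5′ end of Gucy2g on the other strand, was at 63.0, 62.1 and 60.4 CPM in overexpression, against 68.0, 79.4 and 71.2 CPM in control, a log2 fold change of -0.24 ± 0.15 (SE). In TPM the groups of Acsl5 and of Tectb overlapped. Neither gene passed the edgeR test (unadjusted p = 0.057 for Tectb and 0.15 for Acsl5, adjusted p = 0.82 for both).

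The 5 genes with the pattern most like Gucy2g over the 6 libraries, among 13957 named genes with a mean of at least 1 TPM, were Nrep, Epha8, Plekho2, Prr7 and Tph2. Their Pearson correlations with Gucy2g on log2 CPM were 0.973 to 0.985, a description over 6 libraries in which both groups take part. Since they were picked for following Gucy2g, their separation between the groups and its direction come from that choice. Their log2 fold changes ran from -2.01 to -0.75. Nrep, a small protein linked to neurite growth, was at 57.3, 56.0 and 47.1 CPM in overexpression libraries 1 to 3, against 108, 94.1 and 88.5 CPM in controls 1 to 3. Epha8, an ephrin receptor, was at 3.01, 3.10 and 2.67 CPM in overexpression libraries 1 to 3, against 6.97, 6.24 and 6.63 CPM in controls 1 to 3. The genes most like the soluble cyclase subunits were, through the same choice, lowest in control 2, like Gucy1a1, Gucy1a2 and Gucy1b1 themselves. They were Nol11, Scn7a, Itga4, Ssbp2 and Tspyl3 for Gucy1a1 (correlations of 0.985 to 0.991), among others Pds5b, Trim44, Dmd and Gsk3b for Gucy1a2 (0.997 to 0.998) and Esf1, Pou3f2, Pam, Zbtb34 and Gabra4 for Gucy1b1 (0.979 to 0.992).

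**Figure D4:**
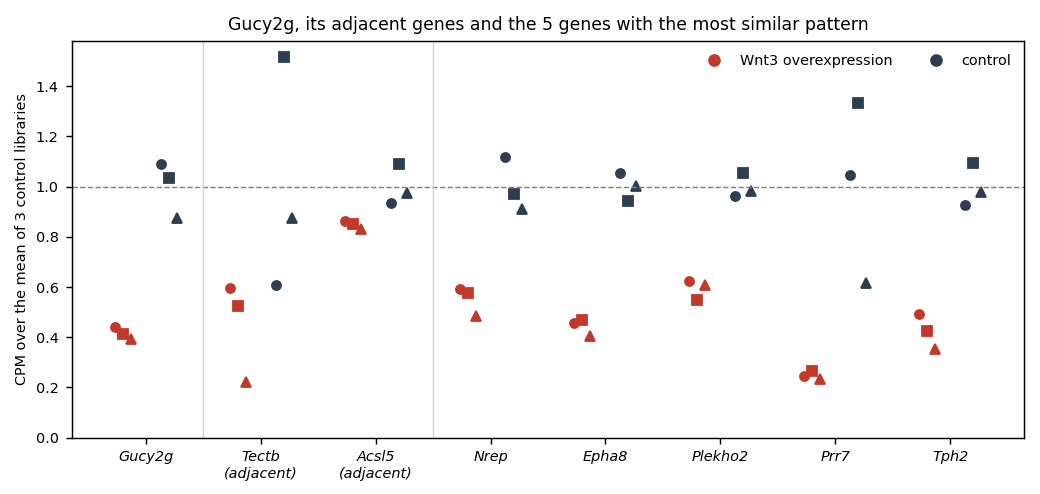
CPM over the mean of the 3 controls (vertical axis) for Gucy2g, its adjacent genes Tectb and Acsl5 and the 5 genes with the most similar pattern, 1 point per library, overexpression (red) left of control (dark blue). Gucy2g lies at 0.393 to 0.443 of the control mean in overexpression and Acsl5 at 0.829 to 0.864.

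The rest of the cyclic GMP pathway was taken as a list of 48 genes by role, of which 37 passed the filter on low counts. The edgeR test called 0 of the 37 in either direction (adjusted p of 0.05), and 0% of all tested genes. Its unadjusted p was under 0.05 for 1 of the 37, and for 4.65% of all tested genes. DESeq2 called 0 of the list, and 0.248% of the genes it gave an adjusted p. The median log2 fold change was 0.12 over the list and -0.01 over all tested genes, and it ran from 0.07 without control 2 to 0.29 without control 3. Groups did not overlap in 5 of the 37, 4 higher and 1 lower in overexpression, where the shares over all tested genes were 5.89% higher and 6.04% lower.

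Of 6 peptide ligands, 2 were tested. Nppc, which encodes the C-type peptide that binds Npr2, was at 2.44, 1.27 and 2.42 CPM in overexpression libraries 1 to 3, against 2.96, 6.86 and 2.39 CPM in controls 1 to 3. Control 2 was the high one, and the log2 fold change of -0.99 ± 0.47 (SE) was -0.38 without it. Guca2a, a ligand of the Gucy2c receptor, had no count in any library, and Guca2b and Nppb each had 4 counts in overexpression library 3 and 0 elsewhere. Furin, a protease that processes peptide precursors, had overlapping groups and a log2 fold change of 0.26 ± 0.21 (SE), which was 0.14 without control 1 and 0.44 without control 3.

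The nitric oxide genes held the member of the list with the smallest p. Nos3, the nitric oxide synthase of endothelium, was at 8.36, 8.98 and 7.55 CPM in overexpression libraries 1 to 3, against 5.91, 6.13 and 4.92 CPM in controls 1 to 3. The groups did not overlap, and the log2 fold change was 0.55 ± 0.22 (SE), with an unadjusted p of 0.035 and an adjusted p of 0.82 in the edgeR test. The summed level of 6 endothelial markers, none of them at 0 in all libraries, was 187, 276 and 187 CPM in the same overexpression libraries, against 146, 147 and 138 CPM in the same controls, and its part in the Nos3 values was not tested. Nos1ap, an adaptor of the neuronal synthase, was at 286, 344 and 330 CPM in overexpression libraries 1 to 3, against 283, 203 and 256 CPM in controls 1 to 3. Its groups were apart by a narrow margin, and the log2 fold change of 0.37 ± 0.18 (SE) was 0.25 without control 2.

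Downstream of cyclic GMP no group of genes stood out. Both protein kinases had overlapping groups, and Prkg2, the membrane-bound kinase, had a log2 fold change of -0.12 ± 0.28 (SE). For Prkg2 it was -0.37 when overexpression library 1 was left out and 0.11 when overexpression library 2 was. Among the kinase substrates, Ppp1r12a, the targeting subunit of myosin phosphatase, had one of 0.12 ± 0.22 (SE), with -0.08 when control 2 was left out and 0.24 when control 3 was. Mrvi1, which acts on calcium release in smooth muscle, had one of 0.65 ± 0.41 (SE), which was 0.36 without control 2 and 1.07 without control 3. Of 13 phosphodiesterases 9 were above 0 and 4 below, where 49.3% of all tested genes were above 0. Without control 2 some of the 9 turned below 0, and none of the 4 turned above it. Pde2a, the most abundant of the 13 at a mean of 188 TPM over the 6 libraries, had a log2 fold change of 0.22 ± 0.17 (SE), which was 0.12 without control 2 and 0.34 without control 3. Pde6c, the cone photoreceptor enzyme, was at 0.37, 0.11 and 0.27 CPM in overexpression libraries 1 to 3, against 0.63, 0.53 and 0.49 CPM in controls 1 to 3. The groups did not overlap, and the log2 fold change was -1.14 ± 0.56 (SE).

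Channels, exporters and the remaining cyclase genes completed the list. The cyclic nucleotide-gated channel genes Cnga2 and Cnga4 had overlapping groups and log2 fold changes of 0.88 ± 0.61 and -0.15 ± 0.34 (SE). That of Cnga2 was 0.45 without control 3 and 0.48 without overexpression library 2, and that of Cnga4 ran from -0.39 without overexpression library 1 to 0.08 without control 2. Abcc4, an exporter of cyclic nucleotides, was at 19.1, 23.8 and 20.5 CPM in overexpression libraries 1 to 3, against 17.3, 12.5 and 17.1 CPM in controls 1 to 3. Its log2 fold change was 0.43 ± 0.20 (SE), or 0.29 without control 2, and the related Abcc5 had one of 0.47 ± 0.29 (SE), which was 0.19 without control 2 and 0.73 without control 1. Gucy2f, a retinal cyclase related to Gucy2e, was at 3.25, 3.31 and 3.04 CPM in overexpression libraries 1 to 3, against 2.79, 0.83 and 2.91 CPM in controls 1 to 3, with groups that did not overlap. The log2 fold change of Gucy2f was 0.56 ± 0.46 (SE), or 0.17 without control 2.

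**Figure D5:**
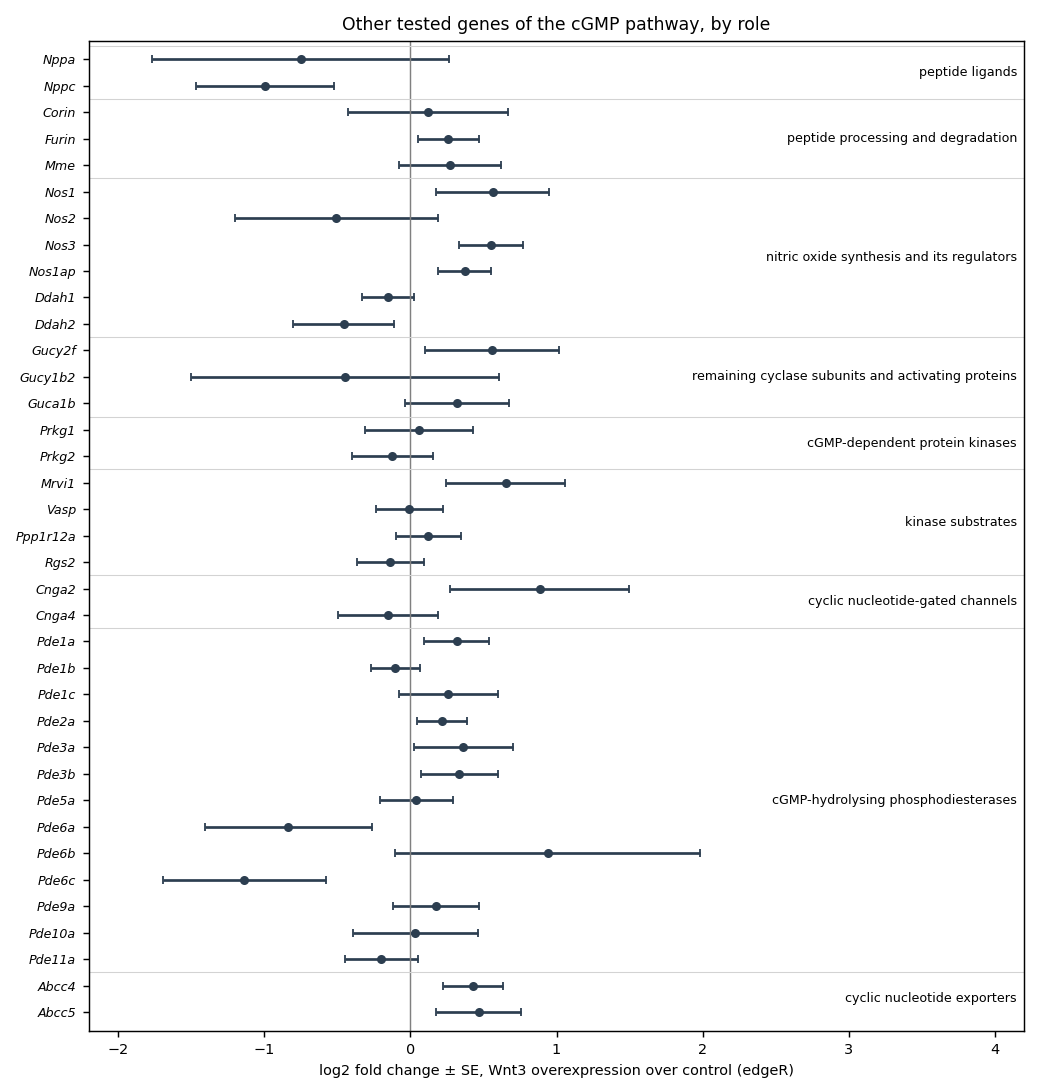
log2 fold change ± SE of Wnt3 overexpression over control (horizontal axis) for the 37 tested genes of the cyclic GMP pathway outside the 9 members, grouped by role. Nos3 has the smallest p (log2 fold change 0.55), and no gene passed an adjusted p of 0.05.

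Cell type markers were summed as a description of the tissue. Besides the endothelial list, the sum of the infiltrating leukocyte list did not overlap between the groups and was the higher in overexpression, at 32.5, 42.6 and 11.5 CPM against 5.16, 4.90 and 6.94 CPM, with 4 of its 6 genes tested. The untested genes of the leukocyte list were Cd3e and Cd79a, so its tested genes were Ptprc, Ccr2, S100a8 and S100a9. In the edgeR test 0 genes of either list were called (adjusted p of 0.05), and 0% of all tested genes. An unadjusted p under 0.05 was found for 4 of the leukocyte and 2 of the endothelial genes, and for 4.65% of all tested genes. The sums of the remaining 11 lists, which include interneuron, pericyte and smooth muscle, meningeal, choroid plexus, glial and erythroid markers, overlapped between the groups. Gene by gene, the log2 fold change was above 0 in 5 of 5 astrocyte and 6 of 6 meningeal markers. The same held for 4 of 4 tested choroid plexus and 4 of 4 tested leukocyte markers. The log2 fold change was above 0 in 0 of 5 microglia, 0 of 5 oligodendrocyte and 1 of 8 striatal projection neuron markers. The other lists were mixed, with 5 of 6 endothelial markers above 0. The meningeal list was highest in overexpression library 1, at 57.7 CPM against 16.5 to 29.2 CPM in the controls. The choroid plexus list was also highest there, at 7.51 CPM against 2.25 to 5.04 CPM in the controls. In this library Gucy1a1, Gucy1a2 and Gucy1b1 were each at their highest CPM. The 5 oligodendrocyte markers ranged from 2806 to 5868 CPM in overexpression and from 4146 to 6215 CPM in control. Whether any of these bears on a member's values was not tested.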

How the data were processed

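RNA was extracted with Trizol and made into strand-specific TruSeq libraries, per the labels' protocols. Per the submitters' processing notes, the build was mm10 and the tools were STAR 2.5.3a, DESeq 1.16.1, FastQC 0.11.5 and Cuffnorm, with no role given for any. How reads were counted, against which annotation and with which strand setting, is not given in the sources used here. Raw counts by gene, as whole numbers without normalization, were deposited by the authors. They also deposited TPM by gene, which sums to 1000000 in each library.

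Libraries were grouped by title and matched to columns through the library name. Counts were tested with edgeR 4.0.16 (R 4.3.3) by the quasi-likelihood test (glmQLFit, glmQLFTest), with filterByExpr (minimum count 10), TMM factors, group as the only term and Benjamini-Hochberg adjustment at 0.05 over 22360 genes. The standard error is the log2 fold change over the square root of F. Log2 CPM used a prior count of 2. A permutation test of 3 against 3 cannot go below p = 0.1, so none was used. The edgeR fit was also run on simulated counts with known folds. No simulated library stood apart from its group, so the simulation is no check of the fit under such a library.

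The rule for named genes took all members, Wnt3, from each pathway role the gene with the highest TPM and that with the smallest p, overlapping or flanking genes, and the 5 genes most like Gucy2g and each soluble subunit. Guca2a, Guca2b and Nppb were named, and ratios between members formed, after their values were seen. A gene that the rule names is not reported here. Members and lists were chosen with earlier results of these data known. Alternatives were other scaling and filters, DESeq2 1.42.0, limma 3.58.1 (voom on counts, and limma-trend on log2 TPM with a pseudocount of 1 or 0.1), a replicate block, and each library left out. DESeq2 with each library left out was added after seeing the data. Promoter sequences are from RefSeq (GRCm38.p6). The 9 symbols matched 9 rows. SD and SE measure the spread between libraries, and the limit for Gucy2c covers counting error only.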

Additional observations from a re-analysis of the deposited data

How the results depend on the processing

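The count of called genes was 0 with edgeR under each scaling, filter and left-out library tried, with limma voom and with limma-trend on TPM, and 64 with DESeq2 (1040 genes at an unadjusted p under 0.05 with edgeR and 1483 with DESeq2). With single libraries left out it ranged from 0 with edgeR to 131 with DESeq2, which called 86, 131 and 108 without controls 1, 2 and 3 and 29, 13 and 65 without overexpression libraries 1, 2 and 3. Calls among the pathway genes and among the neighbours were 0 under each alternative. The 23 alternatives reuse libraries of the comparison that put the family forward, so a sign shared among them carries no independent support. Over these alternatives the log2 fold change of Gucy2g ran from -1.35 to -0.91 and was below 0 in all. Nearest to 0 were -0.91 by limma-trend on log2(TPM + 1) and -1.03 on log2(TPM + 0.1). On these scales the median of all genes was 0.06 and 0.17, and 0.18 with a mean of at least 0.5 TPM required. That of Gucy2e ran from 0.44 to 0.86 and was above 0 in all 23. Gucy1a1 and Gucy1a2 were each below 0 in 2 of 23, Npr2 in 6, Gucy1b1 in 11, Npr3 in 12 and Npr1 in 16. The order of the 9 genes by control level kept 7 of 9 places without control 2 and without control 3. The deviations of same-numbered libraries from their group means correlated at 0.06, -0.02 and -0.01, so no pairing by replicate number was seen. With 3 libraries a group this check cannot exclude a pairing. With the replicate block edgeR called 0 genes, and 751 had an unadjusted p under 0.05. With 3 libraries a group, differences near the standard errors of most members were not detectable.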
